A study of Rattus norvegicus with 2 samples.

Results

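The genes described here are 9 genes of regulatory T cells and immune checkpoints, namely Foxp3, Ikzf2, Ctla4, Pdcd1, Il2ra, Il10, Cd274, Pdcd1lg2 and Vtcn1. They were chosen by gene name, and each had 1 rat row in both libraries and 1 mouse row in the chimera library, out of 49280 rows in the chimera library and 23373 in that of the Sprague Dawley (SD) rat. Their rat identifiers are, in the same order, ENSRNOG00000011702, ENSRNOG00000027430, ENSRNOG00000054129, ENSRNOG00000019043, ENSRNOG00000047647, ENSRNOG00000004647, ENSRNOG00000016112, ENSRNOG00000016136 and ENSRNOG00000015279. The choice was made with measured values of these libraries known, the difference of Vtcn1 in myocytes among them, so every difference below is a description and none is tested.

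Regulatory T cells are the T cells that restrain other lymphocytes. Their lineage is set by the transcription factor FOXP3, often together with Helios, which Ikzf2 encodes, and they carry the high-affinity chain of the interleukin-2 receptor (Il2ra) and the inhibitory receptor CTLA-4. PD-1, encoded by Pdcd1, is an inhibitory receptor of activated T cells. Its ligands PD-L1 (Cd274) and PD-L2 (Pdcd1lg2) are carried by myeloid cells, endothelium and other cells, and B7-H4 (Vtcn1) is a B7 family ligand whose receptor is not settled. Interleukin-10 (Il10) is an anti-inflammatory cytokine of macrophages and of some T cells. In injured skeletal muscle, regulatory T cells gather and take part in repair.

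Single-cell RNA-seq had been performed on muscle collected body-wide from 1 SD rat and 1 rat-mouse chimera. The chimera was an SD rat embryo that had received mouse induced pluripotent stem cells (iPSCs) at the morula stage. The iPSCs came from 1 clone derived from Dmd mdx mice with the Pax7-nGFP reporter, in which the dystrophin gene had been edited with CRISPR/Cas9, and the SD rat had received no cells. Age and sex of the 2 sequenced animals are not given in the sources used here. Muscle of both was digested with collagenase II and live cells were sorted by Calcein Violet, so the values concern cells that survived both steps. Rat cells of the chimera (chimera rat, at most 20% of UMIs on mouse genes), mouse cells of the chimera (chimera mouse, at least 80%) and SD rat cells form 3 populations. The rat cells of the chimera and those of the SD rat come from 2 different SD animals, and the chimera mouse cells derive from the iPSCs.

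The chimera library held 13299 barcodes and 118872850 unique molecular identifiers (UMIs), and the SD rat library 10117 barcodes and 70957559 UMIs. After filtering, 11730 and 8816 barcodes remained with medians of 7848 and 6276 UMIs, and 43 barcode sequences occurred in both libraries. Of the chimera barcodes, 1653 fell between the species thresholds and entered no class. They held 345 UMIs on the rat and 798 on the mouse row of Cd274, and 25 and 3 on those of Vtcn1. With 1 animal per group there is no replicate, and the 95% intervals given cover counting error only, not differences between animals or between sorts. Levels are given as counts per 1000000 UMIs of the cell's own species (CPM), summed over the cells of a class.

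The 9 genes were examined in 4 classes, named from marker genes. T or NK-like cells numbered 96 in the SD rat, 720 in chimera rat and 93 in chimera mouse cells. Myeloid-like cells numbered 615, 1173 and 181, endothelial cell (EC)-like cells 1577, 720 and 1084, and myocyte-like cells 1520, 833 and 29. T cell markers were present in the class so named: 13, 14 and 15 of the list's genes were found in at least 10% of T or NK-like cells of the SD rat, chimera rat and chimera mouse populations. A UMI of Cd3d, Cd3e or Cd3g, the invariant chains of the T cell receptor complex, was present in 46 of 96 SD rat, 584 of 720 chimera rat and 85 of 93 chimera mouse cells of this class. Summed T cell markers were at 1877, 3487 and 6610 CPM, and summed NK cell markers at 1438, 1124 and 1180 CPM. The SD rat class thus had the lowest share of cells with a Cd3 UMI and the lowest T cell marker sum. All 10 cell cycle markers were found in at least 10% of the chimera mouse cells, and 0 in either rat population. Transcripts of muscle fibres in this class were also unequal, as summed myocyte markers reached 20689 CPM in SD rat T or NK-like cells, 6204 CPM in chimera rat and 535 CPM in chimera mouse cells. The part of these differences in the results below was not tested, except where a value without them is given.

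Foxp3 was found in few T or NK-like cells of each population. The SD rat had 4 UMIs in 3 of 96 cells (3.13%, exact binomial interval 0.649 to 8.86), chimera rat 163 UMIs in 65 of 720 cells (9.03%, 7.04 to 11.4) and chimera mouse 13 UMIs in 7 of 93 cells (7.53%, 3.08 to 14.9). The 3 intervals overlapped. Fibro-adipogenic progenitor (FAP)-like cells, which should lack the gene, had Foxp3 in 0.187% (SD rat) and 0.192% (chimera rat) of cells, at median depths of 10916 and 10648 UMIs. T or NK-like cells were shallower, at medians of 6570.5, 6850.5 and 6868 UMIs, and the intervals of both rat populations lay above these shares. Chimera mouse FAP-like cells had Foxp3 in 0 of 125 cells, which allows up to 2.40%. Myocyte-like cells, with medians of 3640 and 4876 UMIs, had it in 0.789% of SD rat and 0.840% of chimera rat cells. The SD rat share of T or NK-like cells was therefore not distinguishable from that of its myocyte-like cells. With 1000 UMIs drawn from each cell, 2 of 94 SD rat (2.13%), 16 of 717 chimera rat (2.23%) and 1 of 93 chimera mouse cells (1.08%) kept a Foxp3 UMI, and 2, 3 and 0 cells were too shallow to be drawn. This was 1 random draw, and the exact expected shares at this depth were 1.48%, 2.55% and 1.00%. A difference in the share of Foxp3-positive cells between the 3 populations was therefore not detectable at this depth. Among cells with a Cd3 UMI, the full-depth share was 4.35% in the SD rat (0.531 to 14.8, 46 cells) and 11.1% in chimera rat (8.70 to 14.0, 584 cells).

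As a level, Foxp3 stood at 5.70 CPM in the SD rat (1.55 to 14.6), 28.2 CPM in chimera rat cells (24.1 to 32.9) and 14.8 CPM in chimera mouse cells (7.88 to 25.3). The log2 ratio of chimera rat to SD rat was 2.31 (0.92 to 4.20) from only 4 SD rat UMIs, and it was 0.39 after drawing 1000 UMIs from each cell. That single draw kept only 2 SD rat UMIs. Foxp3 UMIs were also counted in myocyte-like cells, with 14 UMIs in 12 of 1520 SD rat cells and 10 UMIs in 7 of 833 chimera rat cells, at 2.13 and 2.11 CPM. In chimera rat myeloid-like cells Foxp3 had 4 UMIs in 3 of 1173 cells, and in the SD rat 0 of 615 cells (a share of at most 0.488%).

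**Figure D1:**
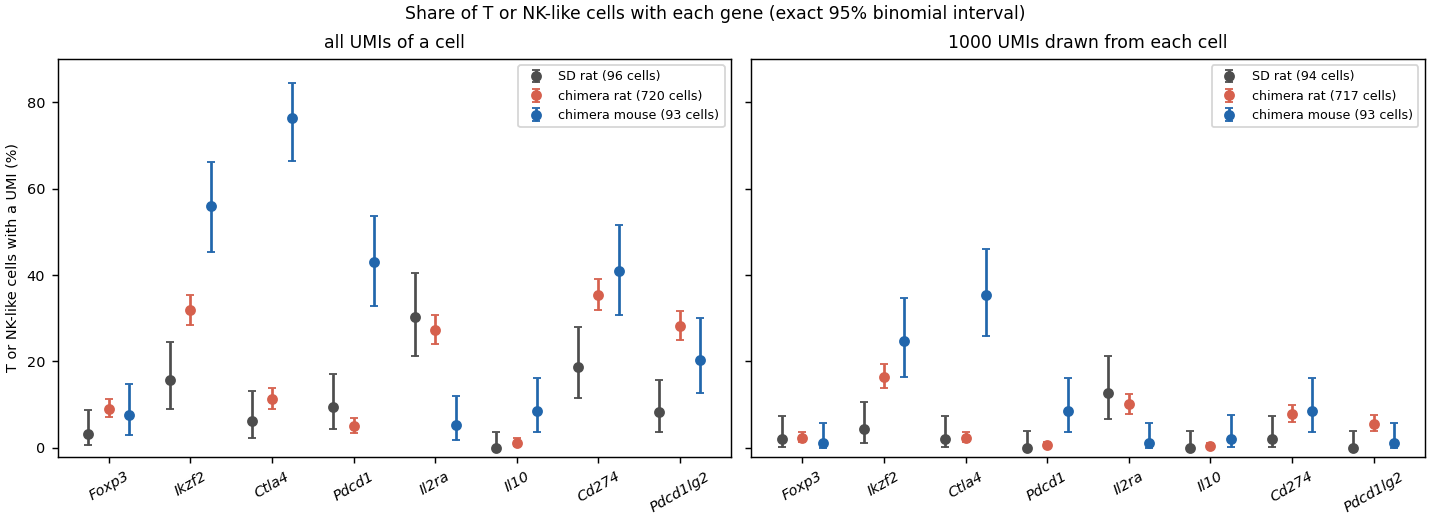
Share of T or NK-like cells with a UMI of each gene (percent, y axis) in SD rat, chimera rat and chimera mouse cells, at full depth on the left and with 1000 UMIs drawn per cell on the right; points are shares and lines exact 95% binomial intervals. In the single draw at equal depth the Foxp3 shares are 2.13%, 2.23% and 1.08%, beside exact expected shares of 1.48%, 2.55% and 1.00%. Ctla4 stands at 35.5% in chimera mouse cells against 2.13% and 2.23% in the rat populations.

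The chimera rat cells with Foxp3 also carried other regulatory T cell genes. Ikzf2 was found in 59 of 65 Foxp3-positive cells (90.8%, 81.0 to 96.5) and in 160 of 519 Foxp3-negative cells with a Cd3 UMI (30.8%, 26.9 to 35.0). Il2ra was found in 40 (61.5%, 48.6 to 73.3) and 109 (21.0%, 17.6 to 24.8), and Ctla4 in 27 (41.5%, 29.4 to 54.4) and 51 (9.83%, 7.40 to 12.7). The median depths of the 2 sets of cells were 6942 and 6990 UMIs. The share of all genes that separate the 2 sets was not computed, so these differences cannot be set against that of other genes. Pdcd1 was found in 16.9% (8.76 to 28.3) against 3.85% (2.37 to 5.89). OX40 (Tnfrsf4), a costimulatory receptor, was found in 55.4% (42.5 to 67.7) against 5.78% (3.93 to 8.15), and Icos, another costimulatory receptor, in 84.6% and 43.7%. Cd8a, which marks cytotoxic T cells, went the other way, at 15.4% (7.63 to 26.5) against 42.0% (37.7 to 46.4). For the PD-1 ligands the intervals overlapped. Cd274 was found in 38.5% and 37.4%, and Pdcd1lg2 in 46.2% (33.7 to 59.0) and 32.0% (28.0 to 36.2). Of the 65 cells, 55 lay in the cluster of 505 cells led by Plac8 and Cd3d, 10 in the cluster of 135 cells led by Gzmbl2, and 0 in the 80 cells led by Ccl5 and named from NK cell markers. The cells come from 1 animal and are not replicates.

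The other populations had too few such cells for shares. All 7 Foxp3-positive chimera mouse cells carried Ikzf2 and Ctla4, 6 carried Tnfrsf4, 6 carried Cd4 and 0 carried Cd8a, but only 1 carried Il2ra. Of the 3 SD rat cells, 0 carried Ikzf2, 1 carried Ctla4 and 1 carried Il2ra. Of the 4 genes Foxp3, Ikzf2, Ctla4 and Il2ra, all 4 were detected together in 17 of 720 chimera rat, 1 of 93 chimera mouse and 0 of 96 SD rat cells. Exactly 3 of them were detected in 45, 10 and 0 cells, and a count of 0 in 96 cells allows up to 3.13%.

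**Figure D2:**
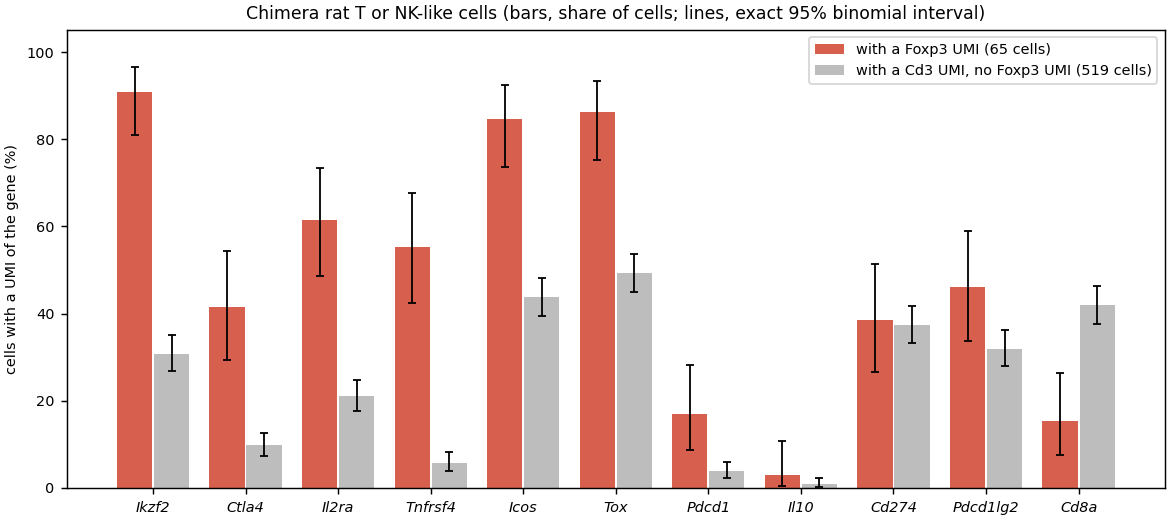
Share of chimera rat T or NK-like cells with a UMI of each gene (percent, y axis), in 65 cells with a Foxp3 UMI and 519 cells with a Cd3 UMI and none of Foxp3; bars are shares and lines exact 95% binomial intervals. Ikzf2 is at 90.8% against 30.8% and Tnfrsf4 at 55.4% against 5.78%, while the bars of Cd274 stand level.

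Ikzf2 had the most UMIs of the 9 genes in chimera rat T or NK-like cells. It was at 68.4 CPM in the SD rat (50.4 to 90.7, 15 of 96 cells), 359 CPM in chimera rat (344 to 375, 230 of 720 cells) and 446 CPM in chimera mouse cells (403 to 492, 52 of 93 cells). The SD rat stood below both chimera populations, with a log2 ratio of chimera rat to SD rat of 2.39 (1.98 to 2.84), and of 1.95 (1.52 to 2.42) among cells with a Cd3 UMI. At 1000 UMIs per cell the shares were 4.26%, 16.5% and 24.7%. Ikzf2 is not confined to T cells in these data, since FAP-like cells had it at 8.80 CPM in the SD rat and 17.6 CPM in chimera rat cells, in 6.27% and 11.2% of cells.

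Il2ra had no direction between the rat populations that held under every class definition. It was at 225 CPM in SD rat (191 to 263, 29 of 96 cells), 145 CPM in chimera rat (135 to 155, 197 of 720 cells) and 12.5 CPM in chimera mouse T or NK-like cells (6.25 to 22.4, 5 of 93 cells). The log2 ratio of chimera rat to SD rat was -0.64 (-0.88 to -0.38), and -0.05 (-0.47 to 0.40) among cells with a Cd3 UMI. It was 1.75 (0.52 to 3.38) where a gate of marker UMIs defined the class, from 411 chimera rat and 5 SD rat UMIs. In chimera rat cells the Gzmbl2-led cluster had Il2ra in 69 of 135 cells, the Plac8-led cluster in 125 of 505 and the NK-led cluster in 3 of 80.

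The receptors CTLA-4 and PD-1 set chimera mouse T or NK-like cells apart from both rat populations. The rat Ctla4 promoter is shown because Ctla4 had the largest ratio between mouse and rat cells in this class, with matches to the E-box (CANNTG) in capitals.
Ctla4, chr9:69813171-69813420 (+): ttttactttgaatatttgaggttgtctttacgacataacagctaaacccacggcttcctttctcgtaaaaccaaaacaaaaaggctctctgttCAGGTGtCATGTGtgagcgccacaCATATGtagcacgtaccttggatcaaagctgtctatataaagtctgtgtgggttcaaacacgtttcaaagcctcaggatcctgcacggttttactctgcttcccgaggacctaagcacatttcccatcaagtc
The sequence is the 250 bases before the RefSeq transcript start on GRCr8, a build other than the mRatBN7.2 of the count files, written 5′ to 3′ on the strand of the gene. RefSeq promoters were matched for 8 of the 9 genes. Both strands of each were searched for CANNTG, for the interferon-gamma-activated (GAS) element TTCNNNGAA, for the AP-1 element TGANTCA and for paired GAAA boxes (GAAA, 2 bases of any kind, GAAA). In all 33469 promoters of the table these were present in 65.5%, 7.67%, 6.34% and 3.41%. The Ctla4 promoter held 3 matches to CANNTG and 0 to the others.

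Ctla4 was at 9.98 CPM in the SD rat (4.01 to 20.6, 6 of 96 cells), 22.5 CPM in chimera rat (18.8 to 26.7, 81 of 720) and 640 CPM in chimera mouse cells (588 to 695, 71 of 93). Pdcd1 was at 18.5 CPM (9.87 to 31.7, 9 of 96 cells), 10.6 CPM (8.08 to 13.6, 36 of 720) and 121 CPM (98.8 to 146, 40 of 93). Both genes were therefore higher in mouse than in rat cells, and the rat populations differed less. The log2 ratio of chimera mouse to chimera rat was 4.83 (4.55 to 5.11) for Ctla4 and 3.51 (3.04 to 3.99) for Pdcd1, and that of chimera rat to SD rat was 1.17 (0.09 to 2.52) and -0.81 (-1.69 to 0.18). Mouse and rat genes have separate annotations and 3′ ends, so a ratio between species also carries those. Of 9179 genes paired by name with at least 20 summed UMIs, 38.2% differed at least 2-fold between chimera mouse and chimera rat T or NK-like cells (21.1% higher and 17.1% lower in mouse cells), and so did 5 of the 8 members that passed this minimum, 3 higher and 2 lower in mouse cells.

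The receptors were found together in 38 of 93 chimera mouse cells, 11 of 720 chimera rat cells and 0 of 96 SD rat cells. On the row of the cell's own species, Ctla4 had 7 UMIs in 7 of 125 chimera mouse FAP-like cells. It had 0 in 3205 SD rat and 2598 chimera rat FAP-like cells, which allows up to 0.0936% and 0.115%. Pdcd1 had 0 in all 3 populations of FAP-like cells, of which the 125 mouse cells allow up to 2.40%. After drawing 1000 UMIs, 35.5% of chimera mouse T or NK-like cells kept Ctla4 (25.8 to 46.1) and 8.60% kept Pdcd1. In chimera rat T or NK-like cells 41 of 171 UMIs of the Ctla4 pair lay on the mouse row (23.98%, 17.8 to 31.1), against 1.24% to 13.0% for the pairs of Foxp3, Ikzf2, Pdcd1, Il2ra, Il10, Cd274 and Pdcd1lg2. In chimera mouse cells of the class, 100% of Ctla4 UMIs lay on the mouse row. Over all chimera rat cells 81 of 219 UMIs of the Ctla4 pair lay on the mouse row. Among them were 8 of 15 in myeloid-like, 4 of 4 in EC-like and 3 of 3 in myocyte-like cells. The source of these UMIs was not tested.

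The genes around these receptors were summarised from lists. Of all 9924 genes tested in T or NK-like cells, 8.43% were at least 2-fold higher and 14.1% lower in chimera rat than in SD rat cells. Of 12 Treg-associated genes that passed the minimum in T or NK-like cells, 2 were at least 2-fold higher and 2 lower in chimera rat than in SD rat cells, with a median log2 ratio of 0.37 beside -0.13 for all genes. Icos was at 311 and 259 CPM and Rora, a nuclear receptor of several lymphocyte types, at 180 and 649 CPM. Ikzf4 had 6568 and 4171 CPM there, but it also exceeded 1000 CPM in every other rat class except chimera erythroid-like cells, and it was at 12.5 CPM in chimera mouse cells, so its rat row is uncertain as a measure of that gene. Of 10 co-stimulatory and co-inhibitory receptors, 4 were higher and 1 lower, with a median of 0.72. Cd28, the main costimulatory receptor, was at 150 and 104 CPM, Cd27, another such receptor, at 138 and 77.0 CPM, and Ptpn6, the phosphatase SHP-1, at 62.5 and 17.1 CPM. Of 8 IL-2 signalling genes 0 were higher and 2 lower, with a median of -0.09, and Jak1, a kinase of the receptor, was at 308 and 244 CPM. In the IL-10 and TGF-beta arm 0 of 8 were higher and 2 lower, with a median of -0.77 and Socs3 at 161 and 308 CPM.

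In myeloid-like cells the IL-10 and TGF-beta arm had a median log2 ratio of -0.35 over 7 genes, beside 0.03 for all genes, and Il10 itself was the most abundant of the 9 genes in the rat populations. It was at 448 CPM in the SD rat (431 to 467, 173 of 615 cells), 274 CPM in chimera rat (264 to 284, 297 of 1173) and 85.5 CPM in chimera mouse cells (74.6 to 97.6, 21 of 181). The share of cells, 28.1% and 25.3% in the rat populations, differed by less than its intervals (24.6 to 31.9 and 22.9 to 27.9), although the levels differed with a log2 ratio of -0.71 (-0.79 to -0.63). Few cells held many UMIs, up to 130 in 1 SD rat cell and 97 in 1 chimera rat cell. Il10 came mostly from macrophage-like clusters led by Cxcl2 or Ccl4 and C1qa, where 157 of 360 cells in the SD rat and 223 of 588 in chimera rat had it, against 2 of 101 and 18 of 216 cells in clusters led by class II genes of the major histocompatibility complex. In chimera mouse cells Il10 was found in 17 of 67 cells of the Lyz2-led cluster and in 1 of 82 and 3 of 32 cells of the class II-led clusters. The mouse class held no cluster named from macrophage markers. Its clusters of 82 and 32 cells were named from dendritic cell markers and that of 67 from neutrophil or monocyte markers. In chimera rat cells the clusters of 588, 216 and 32 cells were named from macrophage markers, so levels between the species compare unlike mixtures.

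Il10 in T or NK-like cells was low, with 20 UMIs in 8 of 720 chimera rat cells (3.46 CPM, 2.12 to 5.35) and 17 UMIs in 8 of 93 chimera mouse cells (19.3 CPM, 11.3 to 31.0). The SD rat had 0 of 96 cells, and 3 UMIs would have given 4.28 CPM, so no difference between the rat populations was detectable. FAP-like cells had Il10 in 0.530%, 1.08% and 6.40% of SD rat, chimera rat and chimera mouse cells, so the interval of the 8.60% of chimera mouse T or NK-like cells (3.79 to 16.2) included the level of mouse FAP-like cells, which were deeper (median 14600 UMIs). Il2ra and Ctla4 in chimera mouse myeloid-like cells were at 19.4 and 8.94 CPM, in 21 of 181 cells each, against 3.76 and 0.642 CPM in chimera rat cells. These classes differed in cell types, as given above, and Ctla4 was also counted in mouse FAP-like and B cell-like cells.

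Ikzf2 and Pdcd1lg2 were the 2 of 5 genes that passed the minimum in rat myeloid-like cells and differed at least 2-fold, both higher in chimera rat, beside 8.68% of all 11529 genes either way, 3.88% higher and 4.81% lower. Ikzf2 had 147 UMIs in 34 of 1173 chimera rat cells and 7 in 7 of 615 SD rat cells, a log2 ratio of 3.38 (2.30 to 4.72), and 34 of the UMIs lay in 1 cell. Pdcd1lg2 had 57 UMIs in 37 cells and 7 in 5 cells (2.01, 0.87 to 3.39). Summed T cell markers were at 107 CPM in these chimera cells and 32.7 CPM in the SD rat, with none of the 14 genes of the list in 10% of the cells of either population. Without the cells that had a Cd3 UMI, 20 and 17 UMIs were left in the chimera, and the ratios were 0.60 (-0.70 to 2.08) for Ikzf2 and 0.36 (-0.98 to 1.88) for Pdcd1lg2. Both ratios thus rested on cells that carried T cell transcripts.

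The ligands of PD-1 lie next to each other on rat chromosome 1, with transcript starts 42265 bases apart, but their cell patterns differed. Their promoters are shown for that reason, with matches to the E-box in capitals.
Cd274, chr1:236529982-236530231 (+): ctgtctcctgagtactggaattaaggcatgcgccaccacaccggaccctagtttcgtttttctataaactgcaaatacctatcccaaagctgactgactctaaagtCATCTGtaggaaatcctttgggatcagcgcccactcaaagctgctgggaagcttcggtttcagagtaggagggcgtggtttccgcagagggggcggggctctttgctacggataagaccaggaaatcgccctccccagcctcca
Pdcd1lg2, chr1:236572247-236572496 (+): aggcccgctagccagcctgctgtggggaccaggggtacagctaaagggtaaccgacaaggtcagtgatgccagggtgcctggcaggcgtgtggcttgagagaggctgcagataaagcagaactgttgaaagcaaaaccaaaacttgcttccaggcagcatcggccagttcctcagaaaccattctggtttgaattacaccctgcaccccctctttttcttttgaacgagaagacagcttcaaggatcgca
They are written and searched as for Ctla4. Cd274 held 1 match to CANNTG and Pdcd1lg2 held 0 matches to any of the 4 motifs. Foxp3 and Il2ra likewise held 0.

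Of the 4 classes, EC-like cells had the highest Cd274 level in both rat populations, and in chimera mouse cells their interval overlapped that of myeloid-like cells. The level in EC-like cells was at 282 CPM in the SD rat (267 to 298, 590 of 1577 cells), 218 CPM in chimera rat (203 to 233, 334 of 720) and 228 CPM in chimera mouse cells (217 to 239, 499 of 1084). The log2 ratio was -0.37 (-0.50 to -0.25) for chimera rat against SD rat and 0.07 (-0.05 to 0.19) for chimera mouse against chimera rat. Under other processing the ratio of chimera rat to SD rat ranged from -1.26 to -0.16, so its size was not stable. At a species threshold of 90% the chimera rat EC-like class held 84 cells instead of 720. EC-like cells were shallow, with median depths of 1859, 3431 and 5522 UMIs, and at 1000 UMIs per cell the shares with Cd274 were 22.5%, 20.6% and 16.5%, with 448, 65 and 77 cells too shallow to be drawn. At full depth the shares were 37.4%, 46.4% and 46.0%, so their order depended on depth.

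Pdcd1lg2 differed between the species in the same cells. It was at 37.8 CPM in SD rat (32.4 to 43.8, 131 of 1577 cells), 34.0 CPM in chimera rat (28.4 to 40.4, 91 of 720) and 1.09 CPM in chimera mouse EC-like cells (0.471 to 2.15, 7 of 1084). With the main settings the rat populations differed by less than their intervals (log2 ratio -0.15, -0.49 to 0.18). Under other processing that ratio ranged from -1.08 to -0.13, so it did not stay below 2-fold under every alternative. Chimera mouse cells lay below chimera rat cells by a log2 ratio of -4.96 (-6.20 to -3.94). In this class 38.9% of 10558 paired genes differed at least 2-fold, 19% higher and 19.9% lower in mouse cells. Mouse Pdcd1lg2 was counted in other mouse cells, at 31.9 CPM in T or NK-like and 14.8 CPM in myeloid-like cells. In chimera mouse EC-like cells 4 of 12 UMIs of the pair lay on the rat row. Whether the mouse row counts the transcript as fully as the rat row was not tested. Of the 4 members that passed the minimum in rat EC-like cells, Ikzf2 (18 and 8 UMIs in chimera rat and SD rat cells) was at least 2-fold higher and Il10 (4 and 16 UMIs) at least 2-fold lower, beside 11.2% of 10962 genes either way, 5.5% higher and 5.73% lower. Of the B7 family and other checkpoint ligands 0 of 8 differed at least 2-fold between the rat EC-like cells, where Cd200, a ligand of myeloid cells, was at 139 and 108 CPM and Cd47, which restrains phagocytosis, at 182 and 164 CPM in chimera rat and SD rat cells.

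Among myeloid-like cells Cd274 was at 116 CPM in SD rat (107 to 125), 133 CPM in chimera rat (126 to 140) and 222 CPM in chimera mouse cells (204 to 241). The mouse class held no cluster named from macrophage markers, unlike the rat classes. It was found in 217 of 337 chimera rat cells of the Lyz2-led cluster of neutrophils or monocytes and 70 of 216 cells of the class II-led cluster. Of 12 B7 family and other checkpoint ligands that passed the minimum, 1 was at least 2-fold higher and 2 lower in chimera rat than in SD rat cells. The shares of all genes were 3.88% and 4.81%, and the median log2 ratio of the list was 0.005. Cd47 was at 186 CPM in chimera rat and 179 CPM in SD rat myeloid-like cells. Cd86, a ligand of both CD28 and CTLA-4, was at 112 and 68.9 CPM, and Pvr at 71.2 and 91.5 CPM.

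In T or NK-like cells both ligands were higher in chimera rat than in SD rat cells. Cd274 was at 37.1 CPM in SD rat (24.2 to 54.3, 18 of 96 cells), 76.6 CPM in chimera rat (69.6 to 84.1, 255 of 720) and 71.7 CPM in chimera mouse cells (55.1 to 91.7, 38 of 93). Pdcd1lg2 was at 15.7 CPM (7.83 to 28.1, 8 of 96 cells), 82.98 CPM (75.7 to 90.8, 203 of 720) and 31.9 CPM (21.2 to 46.1, 19 of 93). The log2 ratios of chimera rat to SD rat were 1.05 (0.48 to 1.68) and 2.40 (1.55 to 3.42), and among cells with a Cd3 UMI 1.27 (0.48 to 2.19) and 2.46 (1.40 to 3.78). At 1000 UMIs per cell, Pdcd1lg2 was kept in 40 of 717 chimera rat cells (5.58%) and 0 of 94 SD rat cells, which allows up to 3.19%. With these, 5 of the 8 members with at least 20 summed UMIs were at least 2-fold higher in chimera rat T or NK-like cells and 0 lower. Of 9924 genes, 8.43% were higher, 14.1% lower and 22.6% differed either way. The minimum was on both populations summed, and Foxp3, Ctla4 and Pdcd1lg2 had only 4, 7 and 11 SD rat UMIs. These 3 passed it through the chimera rat cells. The members were also chosen with values known, so their count beside these shares is no evidence of enrichment. Ctla4, Foxp3 and Cd274 did not stay past 2-fold under every alternative. The log2 ratio of Ctla4 was 0.81 among cells with a Cd3 UMI and 0.16 with 1000 UMIs per cell (17 and 2 UMIs), that of Foxp3 0.39 with 1000 UMIs per cell (20 and 2 UMIs), and that of Cd274 0.87 without the NK-led cluster and 0.76 with the gate. For Pdcd1lg2 at 1000 UMIs per cell (44 and 0 UMIs) the ratio was at least 0.94.

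**Figure D3:**
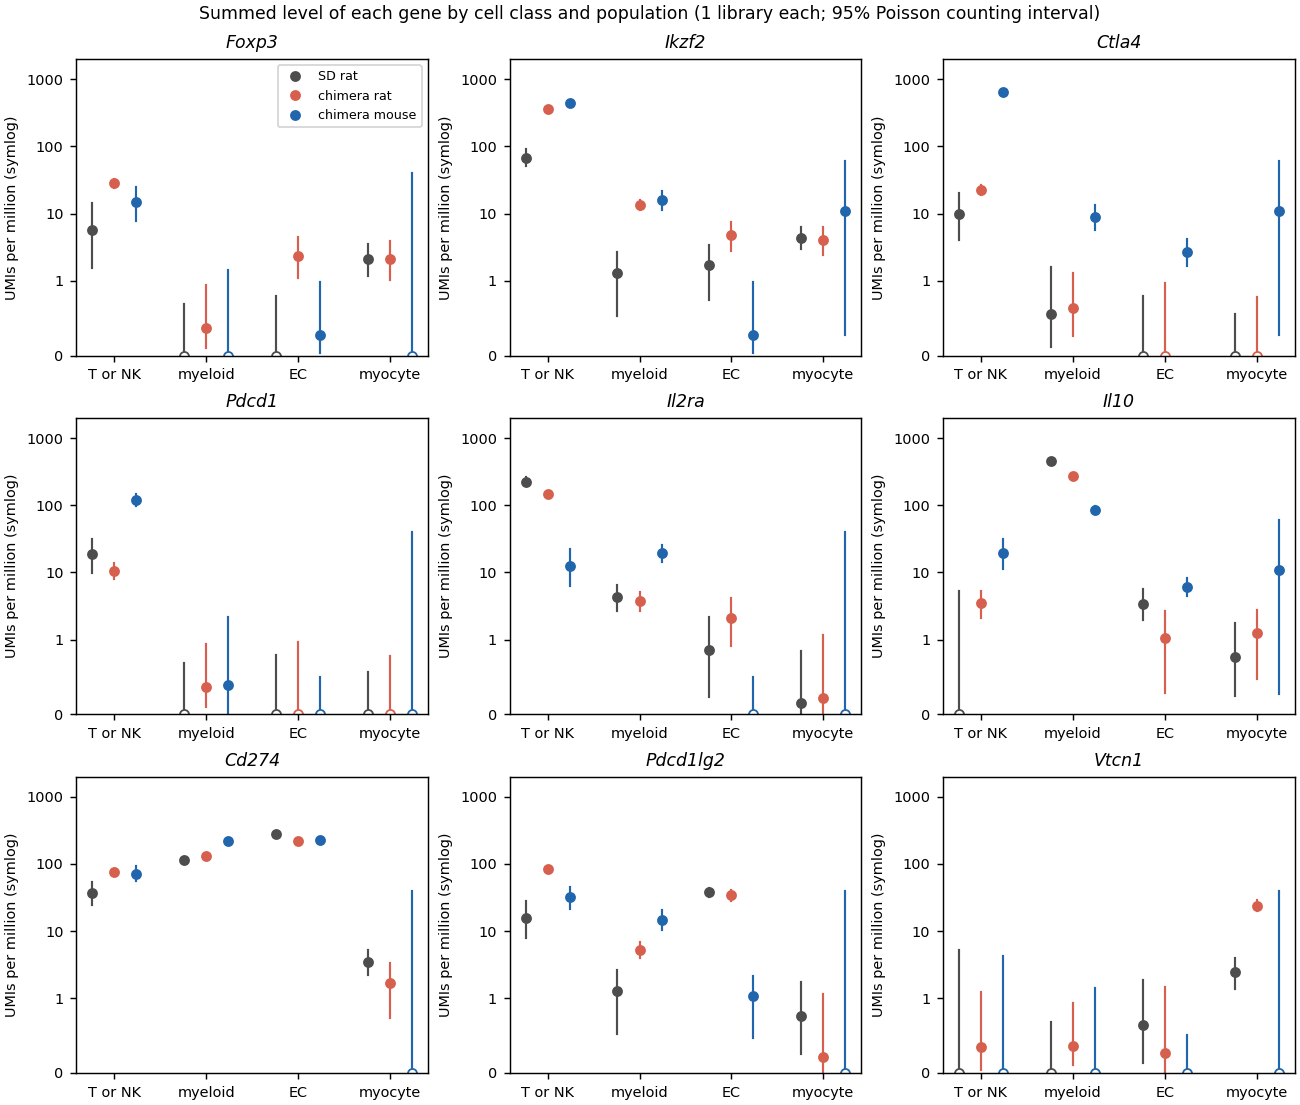
Level of each gene in CPM (y axis, symmetric log scale that is linear below 1) in 4 cell classes of the SD rat, chimera rat and chimera mouse populations; lines are 95% Poisson counting intervals and open points mark 0 UMIs. Cd274 has its highest points in EC-like cells, Il10 in myeloid-like cells, and Ctla4 in chimera mouse T or NK-like cells at 640 CPM.

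**Figure D4:**
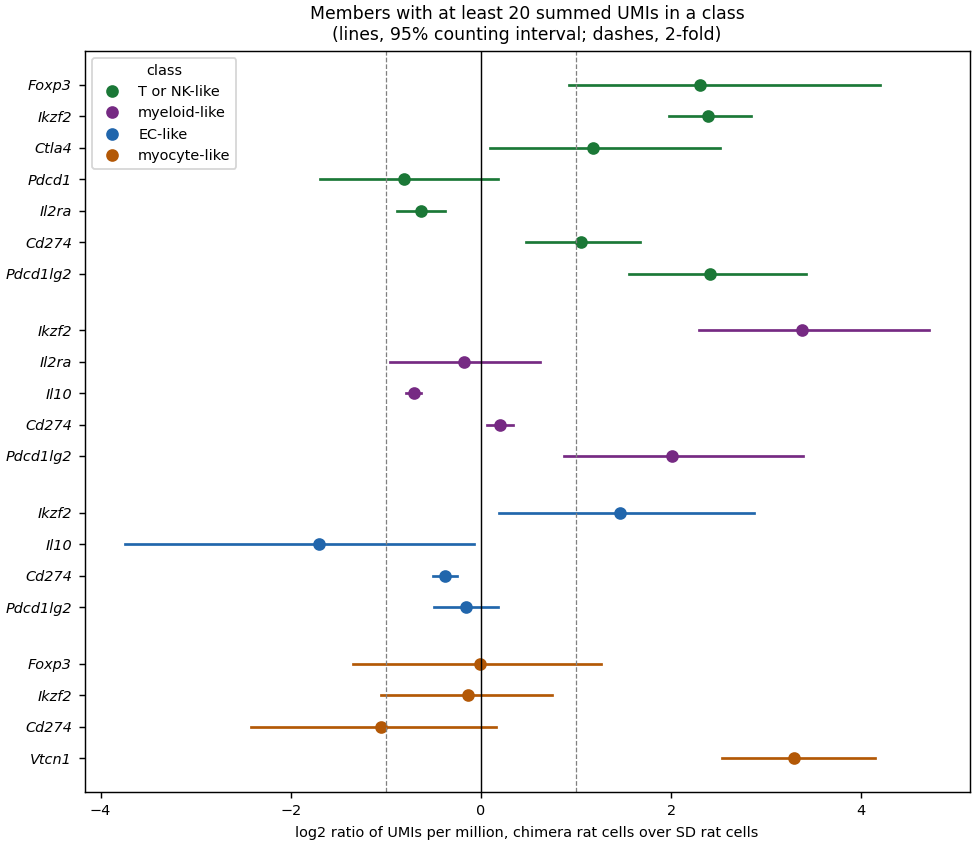
Log2 ratio of chimera rat to SD rat (x axis) for the members with at least 20 summed UMIs in a class and UMIs in both populations; points are ratios of CPM, lines 95% counting intervals, and dashes mark 2-fold. Vtcn1 in myocyte-like cells stands at 3.29, and the T or NK-like points of Foxp3, Ikzf2 and Pdcd1lg2 lie between 2.31 and 2.40.

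In myocyte-like cells Vtcn1 was higher in chimera rat than in SD rat cells. Its promoter is shown because the gene had the largest ratio of the 4 members that passed the minimum there, with an E-box match and an AP-1 match in capitals.
Vtcn1, chr2:190941974-190942223 (+): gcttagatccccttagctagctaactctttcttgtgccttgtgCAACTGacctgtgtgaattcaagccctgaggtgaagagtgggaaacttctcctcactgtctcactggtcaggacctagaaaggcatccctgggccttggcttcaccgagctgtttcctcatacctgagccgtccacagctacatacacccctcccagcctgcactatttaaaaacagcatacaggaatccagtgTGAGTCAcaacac
Written and searched as for Ctla4, it held 1 match to CANNTG, starting 207 bases before the transcript start, and 1 to TGANTCA, starting 13 bases before it.

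Vtcn1 had 16 UMIs in 15 of 1520 SD rat cells (2.44 CPM, 1.39 to 3.96) and 113 UMIs in 96 of 833 chimera rat cells (23.9 CPM, 19.7 to 28.7). The UMIs were spread over many chimera cells, with at most 3 in 1 cell. The contrast was among the results from which the genes were chosen, and its log2 ratio of 3.29 (2.53 to 4.15) is given as a description, in a class where 12.9% of 8136 genes differed at least 2-fold, 1.76% higher and 11.1% lower. Of the 4 members that passed the minimum, 1 was higher and 1, Cd274, lower, though the direction of Cd274 did not hold under other processing. Median depths were 3640 and 4876 UMIs. At 1000 UMIs per cell, Vtcn1 was kept in 6 of 1424 SD rat (0.421%, 0.155 to 0.915) and 18 of 827 chimera rat cells (2.18%, 1.29 to 3.42). This was 1 random draw, and the exact expected shares at this depth were 0.253% and 2.31%.

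In chimera rat cells Vtcn1 was at 22.3 CPM in 551 cells led by Myl1, Mylpf and Tnnc2, 28.4 CPM in 257 cells led by Myh4, and 18.0 CPM from 3 UMIs in 25 cells led by the slow fibre gene Myl2. In SD rat cells it was at 2.18 CPM in 987 cells led by Myl1, 2.23 CPM in 482 cells led by Mb, Myh4 and Ttn, and 10.7 CPM from 2 UMIs in 51 cells led by Tnnt1. Within each library the pair of large clusters lay close together, and the slow fibre clusters held 3 UMIs or fewer. Outside myocyte-like cells, no rat class had more than 5 UMIs on the rat Vtcn1 row in either library. FAP-like cells were at 0.110 and 0.174 CPM. Chimera mouse cells had 0 Vtcn1 UMIs in 29 myocyte-like cells, where 3 UMIs would have given 32.6 CPM, so a level like that of the chimera rat cells was not detectable. Of 113 UMIs of the pair in chimera rat myocyte-like cells 0 lay on the mouse row (up to 3.21% by the exact interval). Over all chimera rat cells 28 of 158 did, among them 6 of 10 in myeloid-like and 3 of 4 in EC-like cells. The mouse row had 0 UMIs over all chimera mouse cells. The source of the mouse-row UMIs in rat cells was not tested, so the low counts outside myocyte-like cells hold for the rat row only.

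Cd274 in myocyte-like cells had 23 UMIs in 21 SD rat cells and 8 UMIs in 8 chimera rat cells, a log2 ratio of -1.05 (-2.42 to 0.16) whose interval included 0. With predicted doublets kept the ratio was 1.04 (41 and 22 UMIs in chimera rat and SD rat cells), and with the gate 0.14, so no direction can be given. Ikzf2 (4.42 and 4.02 CPM) and Foxp3 (2.13 and 2.11 CPM) had ratios of -0.14 and -0.01, and of 1.72 and 1.67 with the gate. The gate put 4203 SD rat and 2814 chimera rat cells in the class, against 1520 and 833 by clusters. Myocyte markers were also found in cells of other classes, so the gated class is not limited to the myocyte-like clusters. The remaining members had 11 UMIs or fewer over both libraries.

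**Figure D5:**
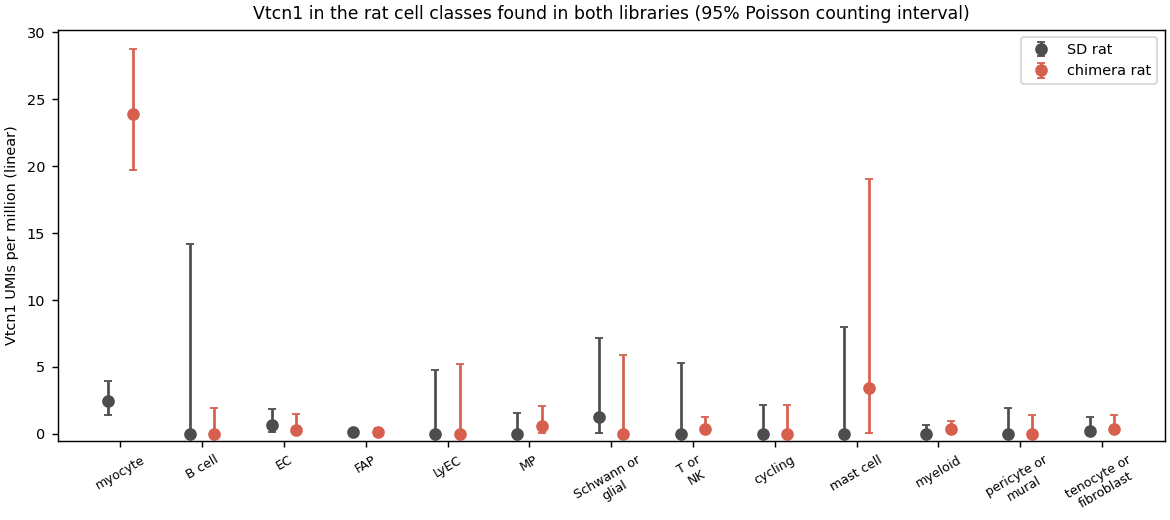
Level of the rat Vtcn1 row in CPM (y axis, linear) in the 13 rat cell classes found in both libraries, SD rat and chimera rat; points are levels and lines 95% Poisson counting intervals. Myocyte-like chimera rat cells stand at 23.9 CPM and SD rat myocyte-like cells at 2.44 CPM, and wide intervals elsewhere come from classes with few UMIs.

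The genes whose level followed each member most closely over 26 profiles (13 classes in each rat library) were listed by Pearson's r of log2(CPM + 10) as a description. The profiles share libraries and most are near 0 for lymphocyte genes, which lifts r. The genes named here are among the 3 nearest of each member. They were Cd40lg, the CD40 ligand of helper T cells, for Foxp3 (0.97), St8sia1 for Ctla4 (1.00), Klrc3 and Gzmk, genes of cytotoxic lymphocytes, for Pdcd1 (both 1.00), Klri2 for Il2ra (0.98), Tnfrsf18 for the same gene (0.97), Art2b for Ikzf2 (0.87), Ms4a6a and the RNA sensor Tlr7 for Il10 (both 0.99), the MHC class I gene RT1-S3 for Cd274 (0.88), Gimap9 for Pdcd1lg2 (0.88), and ENSRNOG00000063843 (0.90) followed by Cacng6 (0.84) for Vtcn1.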

How the data were processed

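The authors deposited UMI counts for each gene in each barcode of 10x 3′ libraries, without normalization. The submitters' processing notes name Cell Ranger 7.1.0 and the builds mRatBN7.2 and GRCm39. The chimera reads were mapped to a combined rat and mouse reference, which can move rat reads to a mouse gene in that library alone.

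Barcodes with at least 500 UMIs, 200 genes and at most 20% mitochondrial UMIs were kept, and predicted doublets of Scrublet (scanpy 1.11.5; 3.65% and 1.83%) were removed. Populations were clustered separately (2000 variable genes without the 9 members and the list genes, 30 components, 15 neighbours, leidenalg 0.10.2 at resolution 1). Clusters were named from marker lists, as rebuilt names rather than those of the study, and T with NK and the myeloid types were pooled after the clusters had been seen. The members, marker lists and 5 gene lists were chosen with earlier results of these data known. The genes named are the 9 members, genes of highest UMI sum in each list, and the genes most alike in profile. Tnfrsf4, Cd4 and Cd8a in Foxp3-positive cells fall outside this rule and were chosen after their values were seen.

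UMIs were summed per class, without pseudocount. Intervals are exact binomial (Clopper-Pearson) or Poisson at 95%, and a ratio takes the binomial interval of the summed counts. With 1 library per group no test was made. A gene counted as different at 2-fold with at least 20 summed UMIs, and a class at 0 was given the limit of 3 counts. The UMIs of both populations were summed for this minimum, so a gene could pass it through the population where it was high. For equal depth 1000 UMIs were drawn once from each cell. The formulas of the ratio and its interval were run on simulated independent Poisson counts. Those counts lack the gathering of UMIs in single cells seen here for Il10, so the run does not bear on the spread of the real sums. Alternatives are described under the closing heading. Promoters are from RefSeq on GRCr8.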

Additional observations from a re-analysis of the deposited data

How the results depend on the processing

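No paired analysis was possible because the labels give no replicate numbers and each group is 1 library, so no replicate could be left out either. Alternatives changed the species thresholds, doublets, depth minimum, totals, scaling, clustering, class names, the minimum of UMIs and the depth of each cell. Restriction to cells with a Cd3 UMI, leaving out the NK-led chimera cluster and leaving out myeloid-like cells with a Cd3 UMI were chosen after seeing the data. Of 43 values for the Vtcn1 ratio, the Foxp3 shares and the number of members past 2-fold, 39 stayed within the counting interval or within 1.5 times the count. With 1000 UMIs drawn per cell the Vtcn1 log2 ratio was 2.37 (18 against 6 UMIs), the Foxp3 share of chimera rat cells 2.23%, and the number of members past 2-fold 3, against 11. These values come from 1 random draw. The draw also left fewer members with the minimum of summed UMIs. In myeloid-like cells Ikzf2 kept 6 UMIs in chimera rat and 0 in SD rat cells, and Pdcd1lg2 kept 5 and 0. The number of members passing the minimum and the share of all genes past 2-fold are not given for this depth. The counts 3 and 11 therefore cannot be compared as shares. The exact expected shares with Vtcn1 at this depth were 0.253% of SD rat and 2.31% of chimera rat myocyte-like cells. With classes set by a gate of marker UMIs, the Foxp3 share of SD rat cells was 0 of 26 cells. Of 247 values for the other ratios 218 stayed within the counting interval. Among ratios past 2-fold, Cd274 in myocyte-like cells turned its direction, at 1.04 with predicted doublets kept and 0.14 with the gate. The cause was not tested. The Il2ra log2 ratio in T or NK-like cells ranged from -1.39 at a 90% species threshold to 1.75 with the gate, which turned its direction. The gate also gave 1.67 for Foxp3 and 1.72 for Ikzf2 in myocyte-like cells, against -0.01 and -0.14. It placed 4203 SD rat and 2814 chimera rat cells in that class, against 1520 and 833 by clusters, so the cells compared were not the same.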

Other observations

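Outside the 4 classes, Cd274 was at 285 CPM in 74 mast cell-like cells of the SD rat (132 UMIs in 57 cells) and 85.3 CPM in 53 of the chimera rat population (25 UMIs in 22 cells). Ctla4 was counted in 18 of 133 chimera mouse B cell-like cells (57 UMIs, 47.9 CPM). Ikzf2 was at 57.6 CPM in SD rat and 20.7 CPM in chimera rat Schwann or glial-like cells, from 45 and 13 UMIs.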
